A study of Mus musculus with 8 samples.

Results

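Alveolar type I markers were measured in embryonic mouse lung with and without extra MIA. The 10 genes Pdpn, Ager, Hopx, Rtkn2, Clic5, Cav1, Emp2, Akap5, Gprc5a and Spock2 were taken as members, and every probe set annotated to exactly one of these symbols was used. That gave 20 of 45037 probe sets on the E18.5 array type and 8 of 12422 on the older E11.5 array type, where 6 of the 10 genes were represented. The members were listed by symbol, with earlier results of these data known. The E18.5 groups were 3 double transgenic (bitransgenic) lungs, labelled SP-C/MIA overexpressor, and 3 single transgenic lungs, labelled SP-C/MIA control. All came from FVB/N embryos, and which transgene the controls carried is not given in the labels. MIA is a small secreted protein, and the promoter of SP-C, surfactant protein C, is used to drive transgenes in distal lung epithelium. A lung and a trachea of E11.5 FVB/N embryos were measured on 1 array each. Arrays are numbered within a group in accession order, and the numbers pair nothing. Whether an array held RNA of a single embryo or of several is not given in the sources used here, so p-values measure only the spread between these arrays.

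Type I cells are the thin, flat epithelial cells that cover most of the alveolar surface, and gases cross them on the way to the capillaries. They differentiate late in gestation from distal epithelial progenitors that also give rise to type II cells, the makers of surfactant. Nkx2-1 and the Hippo pathway effectors YAP and TAZ, which act with TEAD factors, are known regulators of type I fate in mouse.

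The values were MAS5 signals, linear intensities without a unit that had been scaled so that each array had a 2% trimmed mean of 1500. The E18.5 arrays had median signals of 415 to 464. The transgene was visible: Mia read 31399, 42666 and 41546 in the bitransgenic lungs, against 1071, 1070 and 734 in the control lungs. Sftpc, which marks distal lung epithelium, lay between 72239 and 93285 in bitransgenic lungs and between 81074 and 88408 in control lungs. The 3' to 5' ratio of the Actb control probe sets, a sign of RNA quality, was 1.65, 1.51 and 1.61 in bitransgenic lungs and 1.5, 1.47 and 1.28 in control lungs. It was thus higher in every bitransgenic array, but narrowly, at 1.506 in bitransgenic 2 against 1.501 in control 1. Since the groups do not overlap in it, fits that include the Actb ratio cannot tell RNA quality from the transgene. The same ratio for Gapdh was 0.996, 0.921 and 1.08 in bitransgenic lungs and 0.921, 0.921 and 0.781 in control lungs. Its groups overlapped. Bitransgenic 3 and control 3 stood farthest from the rest, with mean correlations across genes of 0.965 and 0.957.

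The type I markers had lower mean values in the bitransgenic lungs on every probe set, and the log2 changes of the genes ran from -1.47 to -0.15. All 20 probe sets had a lower mean log2 signal in bitransgenic lungs, and on 16 of them all bitransgenic values lay below all control values. Such a separation was found on 6.24% of all probe sets. On the representing probe sets it held for 8 of the 10 genes, and for 7.56% of all genes. At the gene level, Rtkn2 and Clic5 fell, none rose, and the other 8 did not pass a limma adjusted p of 0.05 over all 12625 genes tested. The share of all genes called lower was 0.436%, that called higher was 0.238% and that called in either direction was 0.673%. An unadjusted p under 0.05 in the lower direction was found for 8 members and for 5.16% of all genes. All 10 members passed the filter on low values in the gene-level fit, as did 19 of the 20 probe sets. The median log2 change of the 10 genes was -0.44, and that of all genes tested was 0.01. Fewer type I cells and less of these RNAs per cell cannot be told apart in whole lung.

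**Figure D1:**
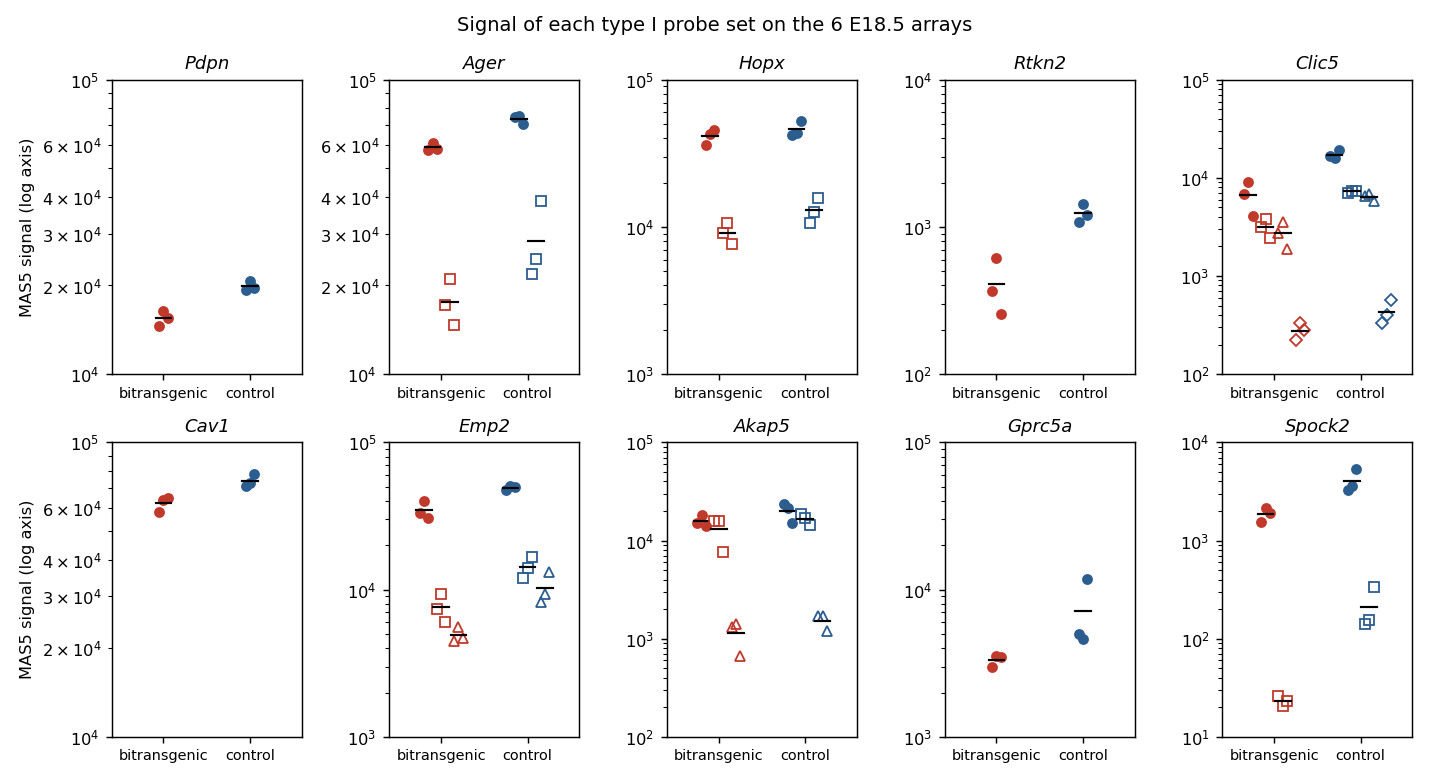
MAS5 signal of each type I probe set on a log axis, with the 3 MIA bitransgenic lungs left of the 3 single transgenic control lungs in each panel. Each symbol shape is 1 probe set, filled where it represents the gene in the gene-level fit, and bars are group means. Pdpn shows the bitransgenic arrays at 14604 to 16439, below the control arrays at 19283 to 20668, and the Akap5 groups overlap.

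Promoter windows are shown for Clic5, the called gene with a window, for Emp2, and for Hopx, which changed least. RefSeq windows of 250 bases before an annotated start (GRCm38.p6) were found for 8 of the 10 genes, 10 windows in all. Capitals mark the GC box GGGCGG or its reverse complement CCGCCC, an element that Sp and Klf factors are known to bind. The windows are chr17:44188322-44188571 on the plus strand for Clic5, chr16:10313969-10314218 on the minus strand for Emp2 and chr5:77115124-77115373 on the minus strand for Hopx. The Clic5 window lies inside the span of the gene (44134762 to 44280169), before an internal annotated start. The Emp2 and Hopx windows adjoin the outer end of their genes. Which start gave the RNA read by the Clic5 probe sets was not tested.
Clic5: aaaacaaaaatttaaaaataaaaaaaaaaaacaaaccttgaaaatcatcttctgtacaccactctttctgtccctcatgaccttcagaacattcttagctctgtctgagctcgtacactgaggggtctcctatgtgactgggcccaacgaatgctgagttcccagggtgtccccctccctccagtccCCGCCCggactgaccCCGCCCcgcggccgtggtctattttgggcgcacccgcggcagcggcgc
Emp2: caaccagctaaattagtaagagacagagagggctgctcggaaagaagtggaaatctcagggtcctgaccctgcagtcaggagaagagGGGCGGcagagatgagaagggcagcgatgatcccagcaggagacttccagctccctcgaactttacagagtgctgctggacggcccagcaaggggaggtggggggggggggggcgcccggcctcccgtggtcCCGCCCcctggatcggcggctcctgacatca
Hopx: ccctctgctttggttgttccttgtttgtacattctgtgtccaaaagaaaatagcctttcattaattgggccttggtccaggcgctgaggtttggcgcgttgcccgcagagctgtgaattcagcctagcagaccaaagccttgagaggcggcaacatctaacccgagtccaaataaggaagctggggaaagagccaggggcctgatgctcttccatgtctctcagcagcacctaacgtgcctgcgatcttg

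The GC box stood 2 times in the Clic5 window, with first bases 63 and 48 bases before the start, and 2 times in the Emp2 window, at 163 and 31. In all, 4 motifs were searched on both strands. The first 3 were the TEAD element GGAATG, the NKX2 element CAAGTG and the GATA element AGATAA, which 12.6%, 11.6% and 9.99% of all 32851 windows of that length held, and each was found in 0 of the 10 member windows. The GC box was added only after those 3 had given no match, and it was found in 4 of the 10 member windows (of Clic5, Cav1, Emp2 and Akap5) and in 32.7% of all windows. The Akap5 window, not printed, held 3 GC boxes, while the Spock2 window and a second Hopx window, also not printed, held none. These counts are a description of letters, and the 3 printed windows were also chosen after the values were seen.

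Rtkn2 and Clic5 were the members with the largest falls in the reported fit, and their order changed with the setting. With probe sets averaged per gene, Spock2 fell more than Clic5, with log2 changes of -1.23 and -1.10. With the dimmest probe set past the filter, Clic5 stood at -0.50. Rtkn2 has 1 probe set, in a gene on chromosome 10 (67979566 to 68058429). Its signal was 364, 613 and 256 in bitransgenic lungs, against 1084, 1440 and 1206 in control lungs. The groups were well apart, with bitransgenic 2 nearest the controls. Its log2 change, bitransgenic minus control, was -1.47 (SE 0.26, 95% interval -2.05 to -0.89, limma adjusted p = 0.0409).

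Clic5 encodes a chloride intracellular channel protein that links membrane and cortical actin, and it was the other called member. Its 4 probe sets lie in a gene on chromosome 17 (44134762 to 44280169). The brightest read 6889, 9024 and 4102 in bitransgenic lungs, against 16582, 15786 and 19420 in control lungs. No bitransgenic value came near the controls, and bitransgenic 3 was lowest. Its log2 change was -1.43 (SE 0.25, 95% interval -1.98 to -0.87, limma adjusted p = 0.0388). When each probe set was tested on its own among 27022, this one passed (limma adjusted p = 0.0476), as did those with log2 changes of -1.22 and -1.25 (limma adjusted p = 0.0149 and 0.0424). The fourth, whose signal was 278 ± 54.5 in bitransgenic lungs and 433 ± 120 in control lungs (SD, n = 3 each), stood at -0.50 on the log2 scale (limma adjusted p = 0.557) and was not called. With Rtkn2, 4 member probe sets were thus called lower, none was called higher, and over all probe sets these shares were 0.281% and 0.163%.

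Both calls lay close to the threshold and were not stable. Rtkn2 and Clic5 passed in 1 of the 6 fits that left out 1 array, the one without bitransgenic 2, with limma adjusted p of 0.0173 and 0.0236. The number of members called was 0 without bitransgenic 1, without bitransgenic 3, without control 2 and without control 3, and 1 without control 1, where Spock2 was called instead. When the model included the Actb ratio it was 0, with limma adjusted p = 0.586 for Rtkn2 and 0.588 for Clic5. Their log2 changes there were -1.22 and -1.07, and over all fits that left out 1 array they lay between -1.75 and -1.24 for Rtkn2 and between -1.68 and -1.12 for Clic5. With control 3 and bitransgenic 3 both left out, Clic5 and Spock2 passed and Rtkn2 did not (limma adjusted p = 0.00848, 0.0388 and 0.0547).

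**Figure D2:**
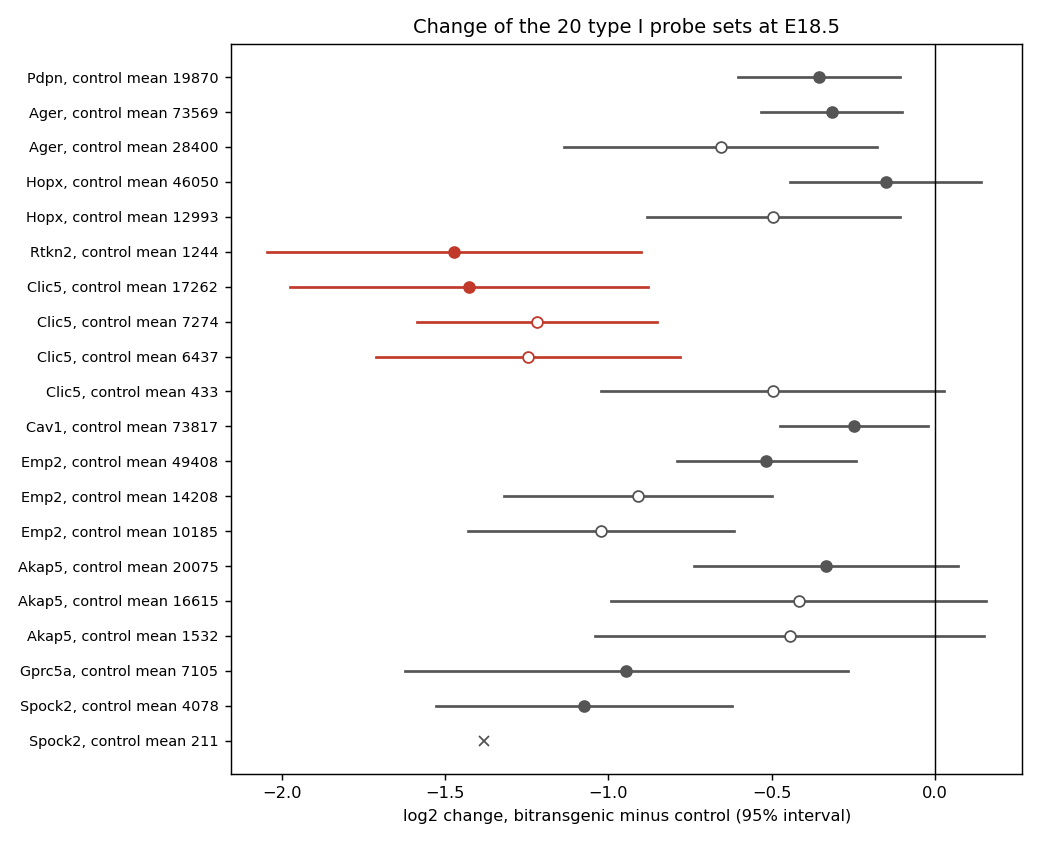
Log2 change of the 20 type I probe sets, bitransgenic minus control, with 95% intervals from the limma fit over 27022 probe sets. Red marks the 4 probe sets past an adjusted p of 0.05, filled circles represent the gene, and the cross is the Spock2 probe set that missed the filter. Every point lies below 0.

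Spock2 and Gprc5a had changes of similar size without passing. Spock2 encodes testican-2, a secreted matrix proteoglycan. Its brighter probe set read 1533, 2130 and 1931 in bitransgenic lungs, against 3287, 3627 and 5320 in control lungs. The groups were separated, and the log2 change was -1.07 (SE 0.20, limma adjusted p = 0.0558). It was -0.58 when the model included the Actb ratio (limma adjusted p = 0.616). The second Spock2 probe set missed the filter, since it read 26, 20.6 and 22.9 in bitransgenic lungs, under the pseudocount of 86, against 142, 154 and 337 in control lungs. Gprc5a encodes an orphan G protein-coupled receptor of lung epithelium. It read 2970, 3529 and 3474 in bitransgenic lungs, against 4981, 4600 and 11733 in control lungs. Control 3 stood far above both other controls, and the log2 change of -0.94 (SE 0.31, limma adjusted p = 0.326) became -0.52 without it and -0.13 when the model included the Actb ratio.

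Emp2, the tetraspan epithelial membrane protein that also occurs in endothelium, was lower on each of its 3 probe sets. The brightest read 33318, 40084 and 30724 in bitransgenic lungs, against 47601, 50787 and 49835 in control lungs. The other probe sets read 7567 ± 1662 and 4893 ± 591 in bitransgenic lungs and 14208 ± 2398 and 10185 ± 2569 in control lungs (SD, n = 3 each). On all of them the groups were separate. The log2 changes were -0.52, -0.91 and -1.02, with limma adjusted p of 0.161, 0.0907 and 0.0541 among all probe sets. In the gene-level fit, where the brightest stood for the gene, Emp2 did not pass (limma adjusted p = 0.114). It passed when the mean of its probe sets was used (log2 change -0.82, limma adjusted p = 0.0457).

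The membrane markers most often used for type I cells had smaller changes that did not pass. Pdpn, the mucin-type membrane protein podoplanin, which lymphatic endothelium and mesothelium also carry, read 14604, 16439 and 15537 in bitransgenic lungs, against 19283, 20668 and 19659 in control lungs. The groups were separate, and the log2 change was -0.36 (SE 0.11, limma adjusted p = 0.283). Ager, the receptor for advanced glycation end products, read 57806, 61078 and 58241 in bitransgenic lungs, against 74917, 75193 and 70597 in control lungs on its brighter probe set. Its log2 change was -0.32 (SE 0.09, limma adjusted p = 0.235). On its dimmer probe set Ager read 17207, 21046 and 14627 in bitransgenic lungs, against 21909, 24616 and 38675 in control lungs, a log2 change of -0.66 (limma adjusted p = 0.348 among probe sets).

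Cav1, the scaffold protein of caveolae and also an abundant endothelial transcript, read 57951, 63762 and 64729 in bitransgenic lungs, against 70892, 72645 and 77914 in control lungs. Its groups were also separate, with a log2 change of -0.25 (SE 0.10, limma adjusted p = 0.426) that was -0.15 when the model included the Actb ratio (limma adjusted p = 0.869). Of 6 caveola partner genes past the filter none was called, and 5 had negative log2 changes, where 47.4% of all genes did. The median was -0.36, or -0.15 when the model included the Actb ratio. Cav2 and Cavin2, which join Cav1 in the caveolar coat, had log2 changes of -0.37 and -0.34 (limma adjusted p = 0.376 and 0.373), and Cavin3 and Ehd2, an ATPase at the caveolar neck, had -0.39 and -0.56.

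Hopx and Akap5 were the members whose groups overlapped on the brightest probe set. Hopx, an atypical homeodomain protein found in type I cells and their late progenitors, read 36241, 42704 and 45364 in bitransgenic lungs, against 42371, 43346 and 52432 in control lungs. Its log2 change was -0.15 (95% interval -0.44 to 0.13, limma adjusted p = 0.784), -0.05 without control 3 and 0.070 when the model included the Actb ratio. Its dimmer probe set read 9144, 10667 and 7665 in bitransgenic lungs, against 10708, 12602 and 15670 in control lungs, a log2 change of -0.50 (limma adjusted p = 0.387 among probe sets). Akap5, an anchoring protein for protein kinase A, overlapped on all 3 of its probe sets, with log2 changes of -0.33, -0.42 and -0.45 and a gene-level limma adjusted p of 0.632. The first of these values was -0.20 without control 1, -0.53 without control 3 and -0.60 when the model included the Actb ratio.

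The arrays did not contribute evenly to the member values. Bitransgenic 2 was the highest bitransgenic array on 16 of the 20 probe sets and bitransgenic 3 the lowest on 11. Among the controls, control 3 was highest on 11 and control 1 lowest on 13. Of the 6 genes with several probe sets, the brightest probe set had the smallest change in 5, all but Clic5. The 4 members whose representing probe set had a control mean of 40000 or more, Ager, Hopx, Cav1 and Emp2, were among 117 genes that bright, a level chosen after the values were seen. The log2 changes of those 117 genes ran from -4.45 to 0.36 with a median of -0.01, and 6 of them were called lower. The part of probe set brightness in the differences between members was not tested, nor were the differences between members.

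**Figure D3:**
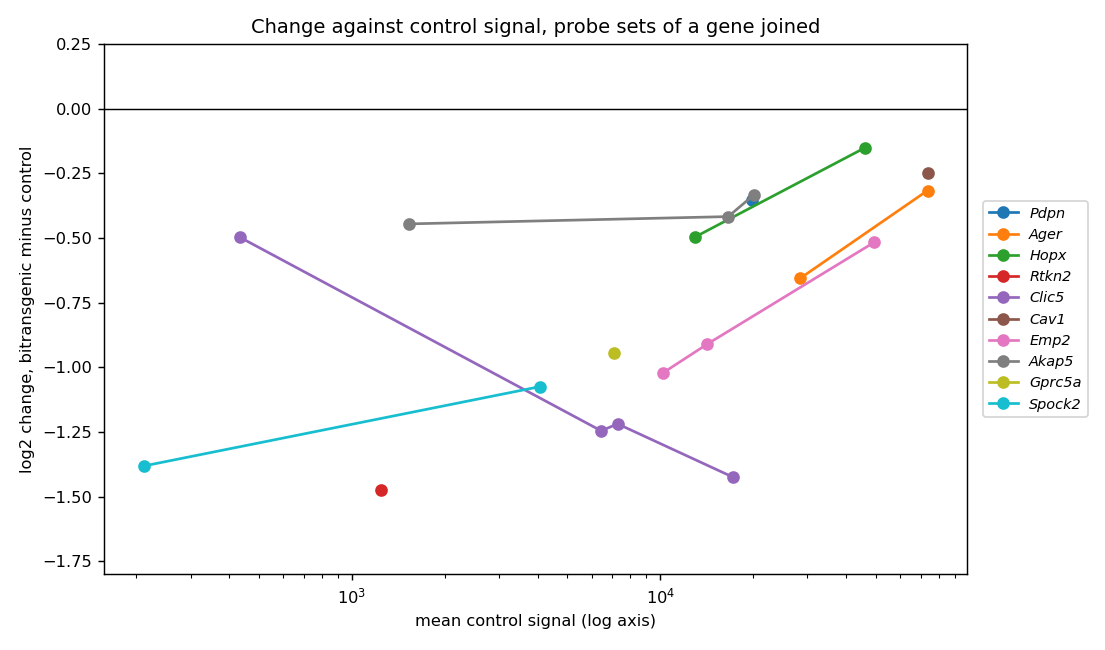
Log2 change of each type I probe set, bitransgenic minus control, against its mean control signal on a log axis, with the probe sets of a gene joined. In Ager, Hopx, Emp2, Akap5 and Spock2 the brightest probe set has the smallest change, and in Clic5 the largest.

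Among 22 other genes known from type I cells, 3 fell, none rose and 19 did not pass, with a median log2 change of -0.38. That median was -0.25 without control 3, -0.22 with bitransgenic 3 and control 3 both left out, and -0.21 when the model included the Actb ratio. Aqp5, a water channel known from type I cells, read 311, 348 and 212 in bitransgenic lungs, against 3179, 4618 and 6593 in control lungs. Its log2 change of -3.65 (SE 0.26, limma adjusted p = 0.000207) was called in all 21 settings tried. S100a6, a calcium-binding protein, and Scnn1g, the gamma subunit of the epithelial sodium channel, had log2 changes of -1.24 and -1.19 (limma adjusted p = 0.0355 and 0.0376). Of the 6 fits without 1 array, S100a6 passed in 2 and Scnn1g in 1. In which cells of the whole lung these 3 RNAs were lower was not tested. Col4a3, a basement membrane collagen, had -0.81 (limma adjusted p = 0.0831). Of the 22 genes, 19 had negative log2 changes, where 47.4% of all genes did. On 11 of them all bitransgenic values lay below all control values, as on 7.56% of all genes. Anxa1, a phospholipid-binding annexin, was the 1 gene of the list with all bitransgenic values above all controls. It read 23263, 24120 and 26081 in bitransgenic lungs, against 17754, 17757 and 17231 in control lungs (log2 change 0.47, limma adjusted p = 0.0962).

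General epithelial genes had mostly positive log2 changes. Of 13 pan-epithelial genes past the filter none was called, 10 had positive log2 changes and the median was 0.27. The other 3 had negative log2 changes, as did 47.4% of all genes. On 5 of them all bitransgenic values lay above all control values, as on 8.86% of all genes. Epcam, the epithelial adhesion molecule, read 8450, 8364 and 7802 in bitransgenic lungs, against 6041, 6913 and 3507 in control lungs (log2 change 0.63, limma adjusted p = 0.378). Control 3 was the lowest, and the log2 change was 0.34 without it. The splicing factor gene Esrp1, the transcription factor gene Grhl2 and the protease gene St14 had 0.34, 0.41 and 0.27. The summed signal of the 13 genes was 99367 to 108559 in bitransgenic lungs and 86831 to 97814 in control lungs.

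Markers of other cell types known to carry some of these transcripts, such as Pdpn, Cav1 and Emp2, were also measured. Over all genes, 47.4% had negative log2 changes, 7.56% had all bitransgenic values below all control values, and 0.436% were called lower. All 20 endothelial genes had negative log2 changes, 15 with separate groups, 1 fell, and the median was -0.41, or -0.19 when the model included the Actb ratio. Their summed signal was 139434 to 146808 in bitransgenic lungs and 178964 to 223395 in control lungs, and no marker was at 0. Car4, a carbonic anhydrase of lung capillaries, was the call, at -1.43 on the log2 scale (limma adjusted p = 0.00337), and Cldn5, Emcn and Ramp2 had -0.62, -0.71 and -0.59. Of 4 lymphatic endothelial genes none was called, 3 were negative, and the summed signal was 14920 to 16587 in bitransgenic lungs and 18905 to 23619 in control lungs. Lyve1 and Flt4, which mark lymphatic vessels, had -0.52 each, while Mmrn1 and Reln had -0.19 and 0.03. Of 7 mesothelial genes 1 fell, the mesothelin gene Msln, at -1.61 (limma adjusted p = 0.00904), while the median was -0.03. Wt1, Lrrn4 and Gpm6a had -0.33, -0.25 and 0.19, and the summed signal of the list was 12398 to 15605 in bitransgenic lungs and 21271 to 32506 in control lungs. Without Msln the sums overlapped, at 7390 to 9928 in bitransgenic lungs and 7733 to 10119 in control lungs. The part of these cells in the type I values was not tested.

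Type II, airway and mesenchymal genes were set beside the type I markers. Of 18 type II genes 10 fell and none rose, with a median log2 change of -1.10 and Sftpa1, Scd1, Hc and Chil1 at -4.45, -4.94, -3.23 and -2.27. Over all genes 0.436% were called lower and 0.238% higher. Negative log2 changes were found for 15 of the 18, while Sftpc, Etv5 and Muc1 had 0.002, 0.08 and 0.10 with overlapping groups. None of 5 club cell genes passed (median -0.18), with Scgb1a1, the club cell secretory protein gene, at -0.42 and Cyp2f2, Scgb3a2 and Gabrp at -0.26, -0.17 and -0.18. None of 12 smooth muscle and fibroblast genes passed (median -0.06), with Pdgfra, Cnn1, Tcf21 and Col1a2 at -0.38, 0.41, -0.16 and 0.13. Cnn1 read 1305 in bitransgenic 3 and at most 649 on the other arrays, and its log2 change was 0.07 without that array. Whether the type I list differed from any of these lists was not tested.

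**Figure D4:**
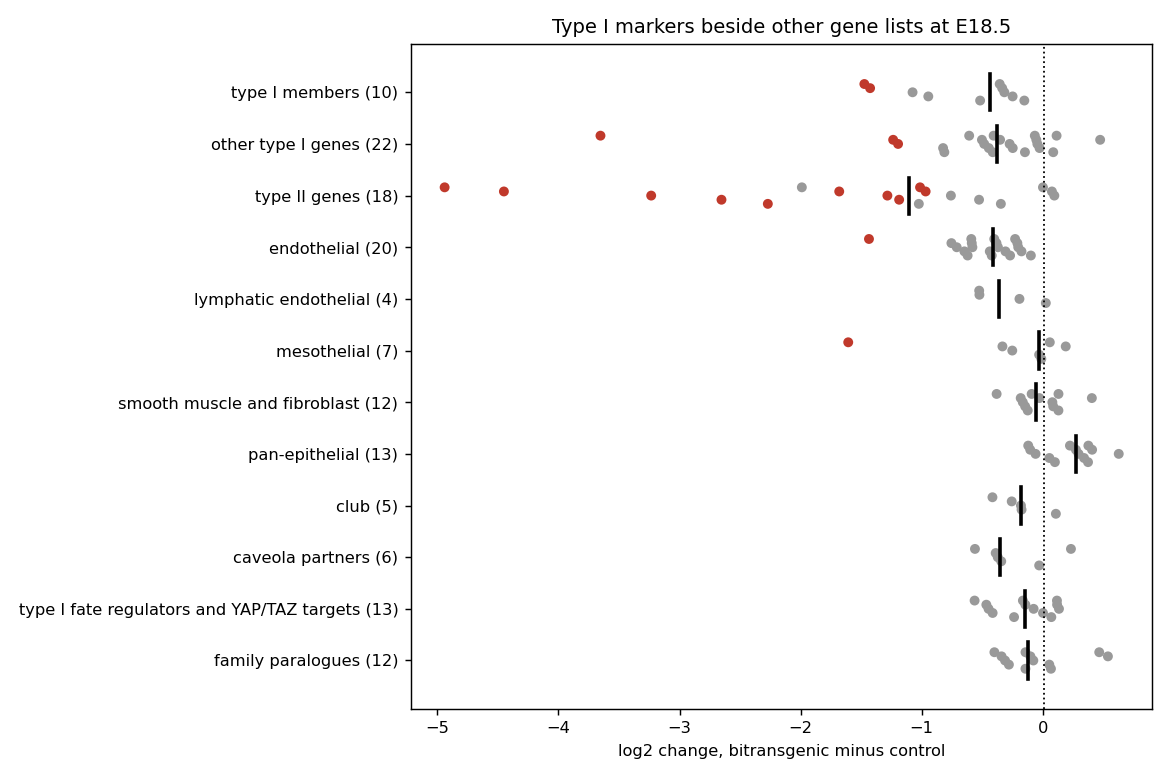
Log2 change, bitransgenic minus control, of each gene past the filter, by list, with the number of genes in brackets. Red points passed a limma adjusted p of 0.05, thick bars are list medians, and the dotted line is the median of all 12625 genes, 0.01. The type I members lie between -1.47 and -0.15, and most pan-epithelial genes lie above 0.

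Regulators of type I fate and targets of YAP and TAZ showed no call among 13 genes, with a median log2 change of -0.14. The log2 changes of the 13 genes ran from -0.56 to 0.13, and 8 were negative, where 47.4% of all genes were. The targets Ccn2 and Ccn1, matricellular proteins, had -0.56 and -0.41 (limma adjusted p = 0.19 and 0.377), and Tead2 and Tead4 had -0.45 and -0.47. Without control 3, Tead2 and Tead4 had -0.17 and -0.23. Nkx2-1 lay between 425 and 464 in bitransgenic lungs and between 370 and 466 in control lungs. Paralogues of the members also gave no call among 12 genes, with a median of -0.12. Of the 12, 8 had negative log2 changes, where 47.4% of all genes did. Clic6, a relative of Clic5, and Gprc5b, a relative of Gprc5a, lay on the other side of 0, with log2 changes of 0.54 and 0.47 (limma adjusted p = 0.406 and 0.363). All their bitransgenic values lay above the controls, as on 8.86% of all genes. Other relatives of Clic5 and Gprc5a, namely Clic1, Clic3, Clic4 and Gprc5c, had -0.34, -0.31, -0.14 and -0.10. Pmp22 and Emp3, relatives of Emp2, had -0.40 and -0.28.

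The genes whose profile over the 6 arrays came nearest to the mean profile of the members were Ccrl2, Acaca, Nox4, St3gal6 and Cldn5. Each profile was the log2 signal minus its mean over the arrays, and the root mean square differences were 0.030, 0.059, 0.060, 0.063 and 0.066 on that scale. Their log2 changes lay between -0.70 and -0.62, and none passed (limma adjusted p from 0.0623 to 0.119). Of the members themselves Emp2 was nearest to the mean profile, at 0.10, and Rtkn2 farthest, at 0.46.

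At E11.5, before alveolar cells form, 6 of the 10 genes were on the array, and with 1 array per tissue no test was made. Sftpc read 1503 in lung and 257 in trachea, and Sox2, a marker of proximal airway epithelium, 1016 in lung and 4260 in trachea. Spock2 differed most, with 161 in lung and 934 in trachea on its brighter probe set and 28.7 in lung and 260 in trachea on the other. The log2 ratio of lung over trachea was -2.05 for the brighter one with a pseudocount of 84, and -1.35 with a pseudocount 4 times as large. Spock2 was the 1 of 5 compared members that was over 2-fold apart. Of all 5114 genes compared, 1.17% were over 2-fold higher in lung and 2.25% over 2-fold higher in trachea.

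The other members differed less between lung and trachea at E11.5. Pdpn read 621 in lung and 730 in trachea, and Hopx 689 in lung and 781 in trachea, log2 ratios of -0.21 and -0.16. Emp2 read 348 in lung and 661 in trachea, a log2 ratio of -0.79. Ager read 206 in lung and 389 in trachea, both under the median signal of 543, and missed the filter. Cav1 was the member on the lung side, with 3543 in lung and 2569 in trachea on its brighter probe set, and 302 in lung and 234 in trachea on the dimmer one (log2 ratios 0.45 and 0.28). The arrays of E11.5 and E18.5 are of different types, so signals were not compared between the stages. Of 11 other type I genes past the filter there, 2 were over 2-fold higher in lung and 0 were over 2-fold higher in trachea. Over all genes compared these shares were 1.17% and 2.25%. The 2 were Lama3, with 859 in lung and 121 in trachea, and Sema3a, with 1174 in lung and 291 in trachea. The median log2 ratio of the 11 genes was -0.34, on the trachea side, and that of all genes past the filter was -0.0016.

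**Figure D5:**
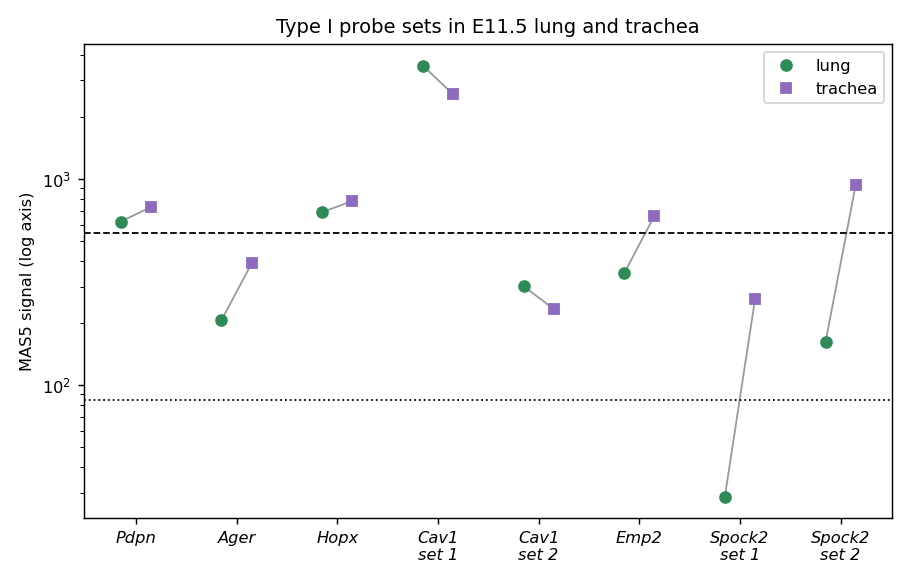
MAS5 signal on a log axis of the 8 type I probe sets in E11.5 lung (circles) and E11.5 trachea (squares), 1 array each, with no error. The dashed line is the median signal, 543, and the dotted line is the pseudocount, 84. Both Spock2 probe sets lie lower in lung, and both Cav1 probe sets lie higher in lung.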

How the data were processed

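Total RNA was measured on 8 Affymetrix 1-colour arrays. The deposited intensity values are MAS5 signals per probe set, per the submitters' processing notes, with no version given in the sources used here. The values show equal 2% trimmed means of 1500 and no logarithm, and the tables as used held no detection calls. The number of arrays limits the precision.

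Control probe sets were left out, 64 at E18.5 and 66 at E11.5. Names came from GEO's annotation of each array type, in which 34945 of 45037 E18.5 probe sets had 1 symbol, 932 several and 9160 none. Analysis used log2 of the signal plus a pseudocount at the 20th percentile (86 at E18.5, 84 at E11.5), which understates changes of dim probe sets. The brightest probe set by mean log2 signal stood for a gene, which was kept when that mean reached the 40th percentile of all probe sets. Bitransgenic and control arrays were tested with limma 3.58.1 and R 4.3.3 (lmFit, eBayes with trend, two-sided, Benjamini-Hochberg over all features tested, no covariate), for genes and for probe sets. Exact permutation of 3 against 3 arrays cannot go below 0.1. E11.5 ratios were counted as apart over 2-fold with the higher signal above the median. The limma fit was tested on simulated data in 10 runs. It recovered 15.1% of 1.5-fold changes, 55.8% of 2-fold changes and 93% of 4-fold changes, and 4.24% of its calls were false. Most changes of 1.5-fold were thus missed.

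Alternatives covered scaling, pseudocount, filter, probe set choice, eBayes settings, array weights, the Actb ratio, embryo sex read from the arrays, and leaving out arrays. The members and lists were chosen with earlier results of these data known. Named genes were all members, up to 4 genes of each other list with the smallest p, Mia, tissue markers and the 5 genes nearest the mean member profile. Anxa1, Lama3, Sema3a, Etv5, Muc1, Clic1, Clic3, Clic4 and Gprc5c were named after their values were seen. Promoter windows came from RefSeq (GRCm38.p6). Figures were drawn with matplotlib 3.10.9.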

Additional observations from a re-analysis of the deposited data

How the results depend on the processing

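The calls of the type I members changed with the setting. Of the 10 members, 9 stayed below 0 in every setting that tested them, and Hopx was 0.070 when the model included the Actb ratio. For the 8 genes with separate groups, leaving out arrays could not change the sign. With no filter, no intensity trend or embryo sex as a covariate, the member log2 changes were the same as reported. The kept signs were thus largely fixed in advance. The number of members called lower, 2 as reported, was 0 with no filter, with no intensity trend and with the Actb ratio, 3 with embryo sex as a covariate, 1 with median centring, quantile normalization or a filter at the 60th percentile, 4 with probe sets averaged per gene and 9 with array weights, whose estimation stopped before convergence. Of member probe sets, 4 as reported, 1 was called with median centring, no filter or no trend, 2 with quantile normalization, 14 with array weights and 0 with the Actb ratio. All genes called, 85 as reported, were 1339 with array weights, 20 with the Actb ratio and 189 without control 3 and bitransgenic 3 together, an alternative chosen after the data were seen. Genes of the other lists called lower, 15 as reported, were 48 with array weights and 6 with the Actb ratio. With the Actb ratio the medians of the club, fate regulator and paralogue lists were 0.0093, 0.034 and 0.016, and those of the mesothelial and smooth muscle and fibroblast lists were 0.18 and 0.28. Leaving out 1 array in turn gave 0 to 2 members, 0 to 4 member probe sets, 22 to 97 genes and 7 to 16 genes of the other lists. Of the 15 called genes of the other lists none moved by over 1.5 times in these fits, while of the 117 not called 86 did and 31 changed sign. Called genes were chosen on these same arrays, and a log2 change near 0 moves by 1.5 times easily. The contrast therefore says little about either group. The log2 changes given, of called genes and of genes that were not called, describe these arrays only. With the dimmest probe set past the filter for each gene, also chosen later, Rtkn2 and Emp2 were called and Clic5 was not. At E11.5 no member was over 2-fold apart with a filter at the 60th percentile, since Spock2 was not compared there. No paired analysis was possible because the groups share no replicate numbers in the labels. The causes of these differences were not tested. Without detection calls, signals near the pseudocount cannot be told from background.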
